A study of Homo sapiens with 30 samples.

Results

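ERG binding sites of VCaP cells that lay in accessible chromatin of RWPE1 prostate cells were examined. Of 5870 VCaP ERG peaks on chr1 to chr22 and chrX, 1661 (28.3%) shared at least 1 base with an ATAC-Seq peak listed for RWPE1 cells that express ERG, myristoylated AKT (mAKT) or both, and are called open here. The other 4209 peaks met no listed ATAC peak and are called closed, which says only that no peak was listed there. The open set was thus selected on the VCaP ERG and RWPE1 ATAC peak calls, and values from those lists are given as a description. The RWPE1 ERG, ERK2 and H3K27me3 ChIP-Seq peaks, the DNA sequence, the gene positions and the RNA-Seq values were not used in the choice.

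VCaP is a prostate cancer cell line that carries a TMPRSS2-ERG rearrangement, and RWPE1 is an immortalized line of normal prostate epithelium. VCaP cells were given DMSO on days 1, 3 and 6 before ERG ChIP, and the list came from 1 library pooled from 3 ChIP experiments. RWPE1 lines for ATAC-Seq and RNA-Seq carried 2 retroviral vectors each: RWPE1-ERG had pQCXIH-ERG (isoform 1) with empty pBabe-puro, RWPE1-mAKT had empty pQCXIH with myristoylated AKT in pBabe-puro, RWPE1-ERG+mAKT had ERG and myristoylated AKT, and RWPE1-Vector had both empty vectors. The ERK2 and H3K27me3 ChIP lines carried a pQCXIH vector alone, which was empty, or held ERG or its phospho-mutant S96E. Each RWPE1 line is a selected pool under viral promoters, so ERG there was not driven by the TMPRSS2 promoter as in VCaP. Every peak list stands for 1 library, and intervals below are 95% Wilson intervals for shares and Newcombe intervals for differences, which cover counting error only. Peaks are not replicates of a cell line.

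ERG belongs to the ETS transcription factor family, whose members bind DNA around a GGAA core and share many promoter sites across tissues. In prostate cells ERG is also known to bind enhancers, where ETS sequences can lie beside AP-1 sites bound by FOS and JUN proteins. VCaP cells are luminal in character and express FOXA1, whereas RWPE1 cells are basal in character.

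Windows of 91 bases, centred on the marked letters and not on the summit, are shown to give the sequence in and beside open peaks, all on the plus strand of the GRCh37 (hg19) reference genome. The windows near RGL2, BRI3BP, ELK4, SPRY1 and PKP2 lie at gene starts, and those near MPRIP and TXNRD1 hold an ETS core beside an AP-1 sequence. These windows were picked from open peaks with the marked letters near the summit, so they do not show how common the letters are. At TXNRD1 the AP-1 sequence ends at the base before the peak's first base, while all other marked letters lie inside their peaks. FRMD6 had ERG and ERK2 peaks in RWPE1 lines. The last window comes from an open peak with very high background on chromosome 19, picked because it holds a CENP-B box. Capitals mark an ETS core (A or C, then GGAA, then A or G, on either strand), an AP-1 sequence (TGACTCA or TGAGTCA) or, in the last window, a CENP-B box, the sequence bound by the centromere protein CENP-B.
RGL2, chr6:33267132-33267222: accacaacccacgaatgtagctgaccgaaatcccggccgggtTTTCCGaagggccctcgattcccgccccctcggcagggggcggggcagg
BRI3BP, chr12:125477524-125477614: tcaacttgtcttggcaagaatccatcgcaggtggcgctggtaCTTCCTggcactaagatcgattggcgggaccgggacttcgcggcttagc
ELK4, chr1:205600404-205600494: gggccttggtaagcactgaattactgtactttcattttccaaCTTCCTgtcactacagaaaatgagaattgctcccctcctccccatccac
SPRY1, chr4:124317798-124317888: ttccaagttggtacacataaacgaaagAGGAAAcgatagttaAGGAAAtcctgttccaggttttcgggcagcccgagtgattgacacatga
PKP2, chr12:33050191-33050281: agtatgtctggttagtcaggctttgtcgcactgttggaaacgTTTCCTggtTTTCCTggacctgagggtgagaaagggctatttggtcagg
MPRIP, chr17:16914514-16914604: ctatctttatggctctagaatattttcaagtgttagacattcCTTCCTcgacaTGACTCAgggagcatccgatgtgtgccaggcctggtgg
TXNRD1, chr12:104613926-104614016: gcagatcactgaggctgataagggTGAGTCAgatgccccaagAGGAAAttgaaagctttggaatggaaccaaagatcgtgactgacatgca
FRMD6, chr14:52001414-52001504: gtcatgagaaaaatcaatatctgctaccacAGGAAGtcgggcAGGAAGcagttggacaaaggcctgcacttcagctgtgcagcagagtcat
High-background peak, chr19:27731992-27732082: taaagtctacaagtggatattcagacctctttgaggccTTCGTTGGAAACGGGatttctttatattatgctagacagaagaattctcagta

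The lists differed in length and in the depth that their background implied, which sets how far they can be compared. The RWPE1-ERG ATAC list held 63354 peaks, the RWPE1+mAKT list 57999 and the RWPE1-ERG+mAKT list 42081. The VCaP list gives no read total. Its lowest local background implied about 20600000 fragments, and the same calculation gave 10300000 for the RWPE1-ERG+mAKT ERG library and 8390000 for the RWPE1-Vector ERK2 library. Most VCaP peaks were shallow, with a median pileup of 9 reads at the summit over all 5870 peaks. In the RNA-Seq values, ERG stood at 0.264 FPKM in RWPE1-Vector, 358 in RWPE1-ERG, 0.435 in RWPE1-mAKT and 328 in RWPE1-ERG+mAKT cells, as the labels say. AKT1 stood at 58.7, 64.2, 156 and 281 FPKM in the same order. The epithelial genes KRT5 and KRT14 were at 700 FPKM or more in all 4 lines, while the prostate luminal genes KLK2 and KLK3 were listed at 0 in all of them. Of the endothelial, fibroblast and blood markers, COL1A1 alone exceeded 1 FPKM, at 1.78 to 2.18.

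The open peaks fell into a pair of very different classes by the local background under them. Background was taken from the pileup and the fold enrichment of each peak, and the limit of 5 reads was chosen after its spread was seen. It was above 5 reads at 474 open peaks (28.5%) and at 169 closed peaks (4.02%). Above 50 reads there were 274 open and 22 closed peaks, and above 500 reads 31 open peaks and 0 closed peaks. Of the 474 high-background open peaks, 382 (80.6%) lay within 2 Mb of an assembly gap of at least 1 Mb, as at centromeres. A match of at least 60% between the sequence and itself shifted by 169 to 173 bases, the spacing of centromeric alpha satellite, was seen around 236 of them (49.8%), short tandem repeats at 82 (17.3%), and a CENP-B box at 16.7%. Their median fold enrichment was 2.00 and their median pileup 154 reads, against 3.94 and 9 reads at the 1187 open peaks of low background. The highest pileup, on chromosome 1, was 13710 reads over a background of 9304, a fold enrichment of 1.47. The printed high-background window belongs to a peak with 7016 reads over 2929, and it holds the CENP-B box shown.

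Pileups of this height also bear on duplicate reads. With single-end reads and fragments of 161 bases, the shortest peak length, at most 322 reads can cover a base when each start and strand is counted once. The pileup exceeded this at 126 open and 2 closed peaks, so if fragments had this length more than 1 read per start and strand was counted there. The part of that in the calls was not tested, and neither was whether the repeats lie in the blacklisted regions that the methods say were removed. Of the 474 high-background open peaks, 2 (0.422%) overlapped an RWPE1 ERG peak, 7 (1.48%) and 6 (1.27%) an ERK2 peak of RWPE1-ERG and RWPE1-Vector cells, and 13 (2.74%), 15 (3.16%) and 18 (3.8%) an H3K27me3 region of RWPE1-ERG, RWPE1-Vector and S96E cells. Unless all peaks are named, the shares by distance, signal and sequence below are of the 1187 open and 4040 closed peaks of low background, and the values over all peaks are given where the direction or the interval's side of 0 changed. In the low-background set 22.7% of the VCaP peaks were open.

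**Figure D1:**
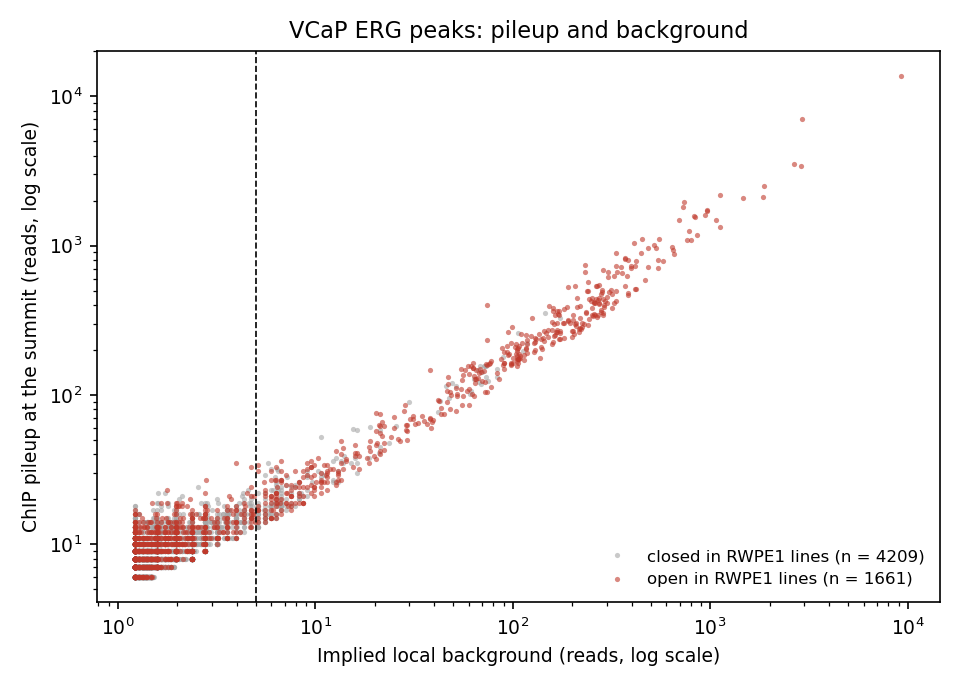
ChIP pileup at the summit (reads, log scale) against the implied local background (reads, log scale) for each of the 5870 VCaP ERG peaks, open in red and closed in grey, with a dashed line at 5 reads. Right of the line stand 474 open and 169 closed peaks, and only open peaks reach beyond 500 reads of background.

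The open set was not equally shared by the 3 ATAC lists. All 3 lists covered 1086 of the 1661 peaks (65.4%), 200 peaks (12.0%) were in the RWPE1-ERG list alone, 69 in the RWPE1+mAKT list alone and 72 in the RWPE1-ERG+mAKT list alone. The RWPE1-ERG list was also the longest of the 3, so these patterns were not read as differences between lines. Among low-background open peaks, the median ATAC fold enrichment was 7.15 in RWPE1-ERG (1072 peaks), 5.69 in RWPE1+mAKT (915) and 5.76 in RWPE1-ERG+mAKT cells (830). Seen from the other side, 2.03% of the RWPE1-ERG, 1.99% of the RWPE1+mAKT and 2.64% of the RWPE1-ERG+mAKT ATAC peaks overlapped an open VCaP peak. Of all open peaks 992 (59.7%) lay wholly inside the peaks of 1 ATAC list. At the edge of the rule, the open peaks with the fewest shared bases lay near UTP3 (1 base), RBCK1 (2 bases) and EIF3K (2 bases). The closest closed peaks, near FFAR2, POLE and TMEM135, were 1 base away from an ATAC peak. The median gap of the closed peaks was 7.12 kb, and 707 of them (16.8%) lay within 1 kb of an ATAC peak.

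Open peaks were concentrated at gene starts. Among low-background peaks, 517 of 1187 open peaks (43.6%, 40.8 to 46.4) had their summit within 1 kb of a protein-coding transcript start in GENCODE, against 259 of 4040 closed peaks (6.41%, 5.7 to 7.21). The difference was 37.1 points (34.2 to 40.1). Of the 217 peaks within 100 bases of a start, 193 were open (88.9%), and of the 558 at 100 bases to 1 kb, 324 were (58.1%). Beyond 1 kb the open share was between 11.0 and 17.7% in every distance class. Open peaks lay in exons in 22.2% of cases (closed 6.09%), in introns in 48.4% (60.4%) and between genes in 29.5% (33.5%). Over all peaks the direction of the last turned, with 46.8% of open and 35.1% of closed peaks between genes (difference 11.7 points, 8.87 to 14.5), as 90.1% of the high-background open peaks lay there. The GC content of the window around the summit was 52.0% ± 8.56 (SD, n = 1187) at open and 42.9% ± 8.79 (SD, n = 4040) at closed peaks.

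**Figure D2:**
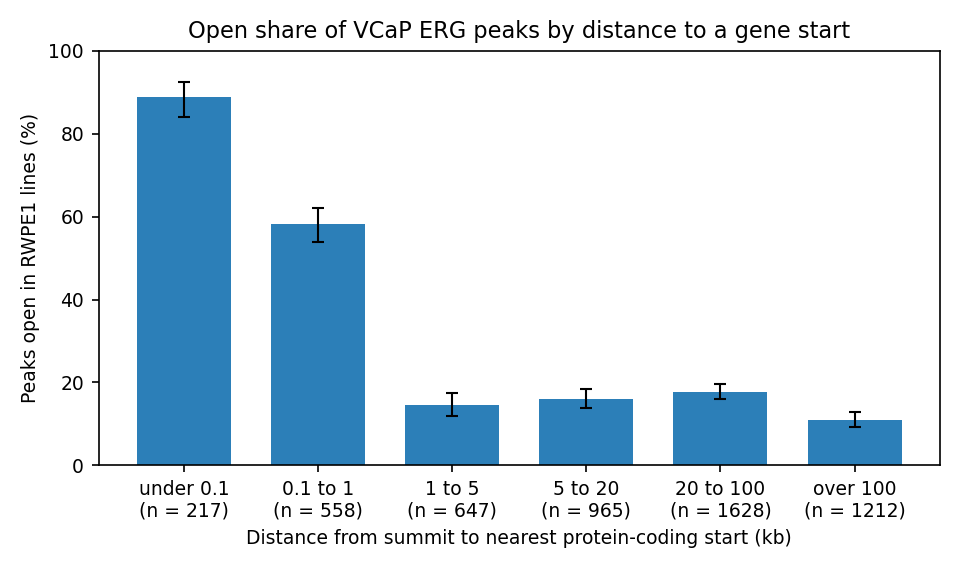
Share of low-background VCaP ERG peaks that were open in RWPE1 lines (%), by distance from the summit to the nearest protein-coding start (kb), with bars for the share and error bars for the 95% Wilson interval. The share is 88.9% under 0.1 kb, 58.1% from 0.1 to 1 kb and 11.0 to 17.7% further out.

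Among low-background peaks, those with a stronger VCaP signal were more often open. Over all peaks the median fold enrichment was 3.59 in both open and closed peaks. Low-background peaks were ranked by fold enrichment and cut into 5 classes of equal size. In the lowest class (2.42 to 3.14), 17.8% were open (15.6 to 20.2), and in the highest (4.35 to 8.83), 36.3% (33.5 to 39.3). The 3 classes between stood at 15.7, 19.2 and 24.5%. Away from gene starts the same classes stood at 12.7, 11.0, 12.4, 14.7 and 25.4%, so the top class stood above the others there too. Restricting the list to peaks with q of at most 0.01 and low background left 1132 peaks, of which 407 (36.0%) were open. Open peaks were also longer, with a median of 255 against 209 bases, which gives them more room to meet a peak of another list. Overlaps are therefore given by the summit base as well.

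In RWPE1-ERG+mAKT cells, ERG peaks were found at few open VCaP sites, but hardly at any closed one. They overlapped 101 of the 1661 open peaks (6.08%) and 10 of the 4209 closed peaks (0.238%), beside 1.89% over all VCaP peaks. In the low-background set the shares were 8.34% (6.9 to 10.1) and 0.248% (0.135 to 0.455), a difference of 8.09 points (6.64 to 9.81). With the VCaP summit required inside the RWPE1 peak they were 4.3% and 0.124%. The 104 RWPE1 ERG peaks concerned were 1.14% of that list of 9104, with a median fold enrichment of 4.24 against 3.53 in the whole list. The median distance between the paired summits was 96 bases, and 54 of 104 pairs lay within 100 bases. The contrast was seen on either side of the 1 kb limit: 7.35% of open and 0.386% of closed peaks near a start, and 9.1% and 0.238% away from one. ERG was the immunoprecipitated protein in both cell lines, so this is the same factor read in a second, separate library. Open sites were defined by ATAC peaks of RWPE1 lines, this line included, so the rule itself favours such a contrast with closed sites. The share of other RWPE1 ATAC peaks with an ERG peak was not counted. Whether open VCaP sites held more ERG than open chromatin of RWPE1 cells in general was therefore not tested.

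Of the 101 open sites with ERG in both cell lines, 99 had low background and are set here beside the 1088 low-background open sites without an RWPE1 ERG peak. They were open in all 3 ATAC lists in 83.8% against 58.7% of cases (difference 25.1 points, 16.1 to 31.8), and held an ETS core in 88.9% against 67.4% (21.5 points, 13.4 to 27.1). Near a gene start lay 38 of the 99 and 479 of the 1088, and the interval of that difference, -15.1 to 4.63 points, included 0. The strongest of them by VCaP signal lay 10 bases from the start of CXCL8, which encodes the neutrophil chemokine interleukin-8. That peak had a VCaP fold enrichment of 7.34, an RWPE1 ERG fold enrichment of 4.11, and ATAC fold enrichments of 13.9 with ERG, 6.86 with mAKT and 11.7 with both. CXCL8 itself was near the expression limit, at 0.743 FPKM in RWPE1-Vector, 1.13 in RWPE1-ERG, 0.803 in RWPE1-mAKT and 1.1 in RWPE1-ERG+mAKT cells.

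ERK2, a kinase that phosphorylates ERG, was likewise found mainly at open sites. In RWPE1-ERG cells ERK2 peaks met 106 open peaks (6.38%) and 21 closed ones, beside 2.16% of all VCaP peaks, and in RWPE1-Vector cells 102 open (6.14%) and 43 closed ones, beside 2.47%. With low background the open and closed shares were 8.34 and 0.52% in RWPE1-ERG cells (difference 7.82 points, 6.35 to 9.54), and 8.09 and 1.06% in RWPE1-Vector cells (7.02 points, 5.56 to 8.73). By the summit base they were 5.22 and 0.322%, and 4.63 and 0.743%. As for ERG, the rule itself favours this contrast, and the share of other RWPE1 ATAC peaks with ERK2 was not counted. The lists differ greatly in length, with 5721 ERK2 peaks in RWPE1-ERG and 41276 in RWPE1-Vector cells, so the lines were not compared by these shares. The RWPE1-ERG list gave 1.84% of its peaks to open VCaP sites and the RWPE1-Vector list 0.245%. ERK2 peaks of both lines met 38 open peaks, those of RWPE1-ERG alone 68 and those of RWPE1-Vector alone 64.

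ERK2 was found more often at open sites with an RWPE1 ERG peak than at those without. Of the 99 low-background open peaks with an RWPE1 ERG peak, 24 (24.2%, 16.9 to 33.5) also had an ERK2 peak of RWPE1-ERG cells, against 75 of 1088 without one (6.89%, 5.53 to 8.56), a difference of 17.3 points (9.79 to 26.7). Over all open peaks the counts were 25 of 101 and 81 of 1560. Low-background sites with an RWPE1 ERG peak were also more often open in all 3 ATAC lists (83.8 against 58.7%). This ERK2 list met 12.2% of low-background sites in 3 lists and 1.43% of those in 1. The part of that in the contrast was not tested. The strongest of the 25 in VCaP lay in an intron of FRMD6, a regulator of Hippo signalling, with fold enrichments of 6.72 for VCaP ERG, 5.29 for RWPE1-ERG+mAKT ERG and 3.13 for RWPE1-ERG ERK2. A site upstream of MPRIP, which encodes a myosin phosphatase-binding protein, had 6.13, 8.47 and 5.94 in the same order, and was open in all 3 lines. An intronic site of TXNRD1, thioredoxin reductase, had 4.90, 3.53 and 4.69. In the windows printed above, the MPRIP peak holds both an ETS core and an AP-1 sequence, whereas the TXNRD1 peak holds the core and the AP-1 sequence lies just outside it. The site at HNRNPA2B1, an RNA-binding protein, had 5.41, 4.94 and 5.01 and lay 98 bases upstream of a start. The remaining strongest sites lay near NEAT1, RAB20, LIMS3L, TMBIM4, MIR802 and MYEOV. ERK2 peaks of RWPE1-Vector cells, which carried no ERG construct, were also listed at FRMD6 (3.53), MPRIP (3.86), TXNRD1 (3.86) and NEAT1 (4.92). None was listed at the other sites named here. The FRMD6 site was open in the RWPE1-ERG list alone.

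H3K27me3, the mark laid down by Polycomb repressive complex 2, was less frequent at open than at closed sites. Regions with the mark in RWPE1-Vector cells met 101 open peaks (6.08%) beside 10.4% of all VCaP peaks, those in RWPE1-ERG cells 49 (2.95%) beside 5.74%, and those in RWPE1-ERG S96E cells 85 (5.12%) beside 9.06%. With low background the open and closed shares were 7.25 and 12.2% in RWPE1-Vector (difference -4.98 points, -6.68 to -3.09), 3.03 and 6.63% in RWPE1-ERG (-3.6 points, -4.76 to -2.25), and 5.64 and 10.6% in RWPE1-ERG S96E cells (-4.97 points, -6.51 to -3.25). Near gene starts the shares were 2.71 and 10.4% in RWPE1-Vector cells. Away from starts they were 10.7 and 12.4% in RWPE1-Vector (-1.6 points, -3.99 to 1.16), 8.66 and 10.7% in RWPE1-ERG S96E (-2.08 points, -4.24 to 0.473) and 4.63 and 6.72% in RWPE1-ERG cells (-2.09 points, -3.68 to -0.0783), so that the interval excluded 0 in the last alone. By the summit base the low-background differences were -3.93, -2.58 and -3.83 points in RWPE1-Vector, RWPE1-ERG and S96E cells, and their intervals excluded 0. Away from starts the summit-base shares were 3.58 and 4.81% in RWPE1-ERG cells (-1.23 points, -2.6 to 0.577). There the interval included 0 in every line. Open peaks with the mark in RWPE1-Vector but not in RWPE1-ERG cells numbered 69, and the reverse 17. The regions covered 242 Mb in RWPE1-Vector, 138 Mb in RWPE1-ERG and 224 Mb in RWPE1-ERG S96E cells, so lines cannot be ranked by these counts. The same listed regions were small and many, and the open VCaP sites took between 0.0205 and 0.0321% of each list.

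**Figure D3:**
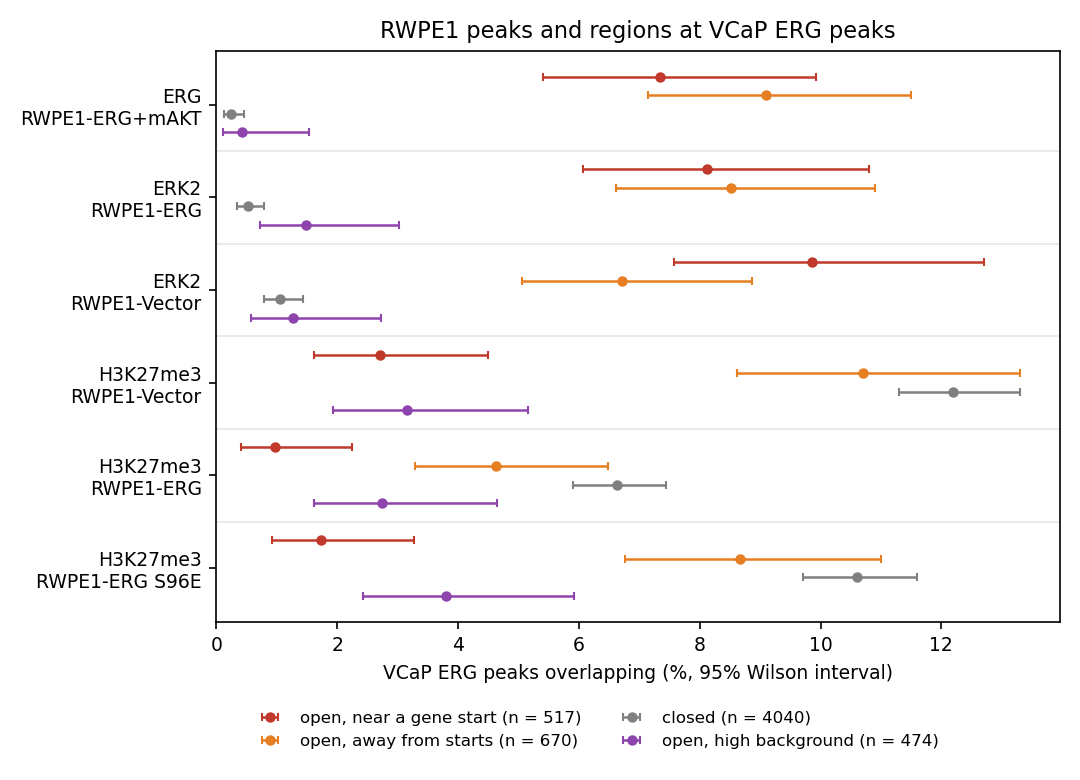
Share of VCaP ERG peaks (%, with 95% Wilson intervals) that overlap an ERG, ERK2 or H3K27me3 peak or region of the named RWPE1 line. Low-background open peaks are split at 1 kb from a gene start, closed peaks are of low background, and high-background open peaks are shown apart. ERG and ERK2 overlap stands at 6.72 to 9.86% in both low-background open classes and at 0.248 to 1.06% in closed peaks, whereas H3K27me3 is lowest near gene starts.

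The sequence under open peaks was that of ETS sites more often than under closed peaks. An ETS core lay within 100 bases of the summit in 821 of 1187 low-background open peaks (69.2%, 66.5 to 71.7) and in 52.2% of closed ones (50.7 to 53.8), a difference of 16.9 points (13.8 to 19.9). Windows of equal length 1 kb to either side of the open summits held it in 41.5%, and windows at the centres of RWPE1-ERG ATAC peaks without a VCaP ERG peak in 49.5% of 61669. Closed peaks too held it more often than their own flanks, which stood at 40.3%. Within 25 bases of the summit the core was found in 31.8% of open and 20.6% of closed peaks. Among low-background peaks with q of at most 0.01 the differences were smaller, at 76.2 and 69.1% within 100 bases (7.06 points, 1.61 to 12.3), and 37.6 and 33.7% within 25 bases, where the interval of -1.83 to 9.79 points included 0. The longer ETS form CCGGAAGT was found in 6.66% of open peaks, 0.495% of closed peaks, 0.295% of open flanks and 1.02% of the other ATAC peaks. This form was found mainly near gene starts: 13.2% of open peaks near a start held it, and 1.64% of those away from one.

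AP-1 sequences were rarer in open VCaP sites than in other open chromatin of RWPE1-ERG cells. They were found in 5.31% of open peaks, 2.48% of closed peaks and 15.7% of the other ATAC windows, and the difference from the last was -10.4 points (-11.6 to -8.98). Away from starts the open share was 7.01% and the closed share 2.59% (difference 4.42 points, 2.64 to 6.66). The sequence GGAAGTGA joins GGAAG to TGA, the opening letters of AP-1 sequences, and holds no full AP-1 sequence. It was in 4.63% of open and 1.51% of closed peaks (3.12 points, 1.98 to 4.51), and in 2.06% of other ATAC windows. Open peaks held it more often near a start (6.77%) than away from one (2.99%, difference 3.78 points, 1.34 to 6.49). AP-1 sequences went the other way, at 3.09 and 7.01% (-3.92 points, -6.41 to -1.39). Paired cores, GGAAGGAA, were in 5.31 and 3.32% of open and closed peaks (1.99 points, 0.706 to 3.5). That difference was not seen over all peaks (0.706 points, -0.306 to 1.86), with q of at most 0.01 (-0.172 points, -2.92 to 2.95) or near a start (0.78 points, -2.54 to 3.45), where each interval included 0. CCGGAAGT always holds the shorter core and the other longer forms can, so these counts overlap. All sequences were searched on both strands, and a match describes the letters only.

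FOX and GATA sequences were found in smaller shares of open than of closed low-background peaks. The FOX sequences TGTTTAC or TGTTTGC were in 9.6% of open and 12.0% of closed peaks (difference -2.38 points, -4.24 to -0.326), and the flanks stood at 5.69 and 6.21%. Over all peaks the FOX difference was -1.68 points and its interval, -3.38 to 0.13, included 0. Near gene starts 6.0% of open and 11.6% of closed peaks held a FOX sequence. Away from starts both stood close, at 12.4 and 12.0%, with an interval of -2.14 to 3.27 points. GATA sequences, AGATAAG or TGATAAG, were in 3.45% of open and 6.71% of closed peaks (-3.25 points, -4.47 to -1.85). Away from starts the GATA shares were 4.03 and 6.93% (-2.9 points, -4.41 to -0.971). Near starts they were 2.71 and 3.47%, and the interval, -3.95 to 1.65 points, included 0. FOX and GATA letters are rich in A and T, the long ETS form is rich in G and C, and the open windows had the higher GC content given above. The part of GC content in these shares was not tested.

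**Figure D4:**
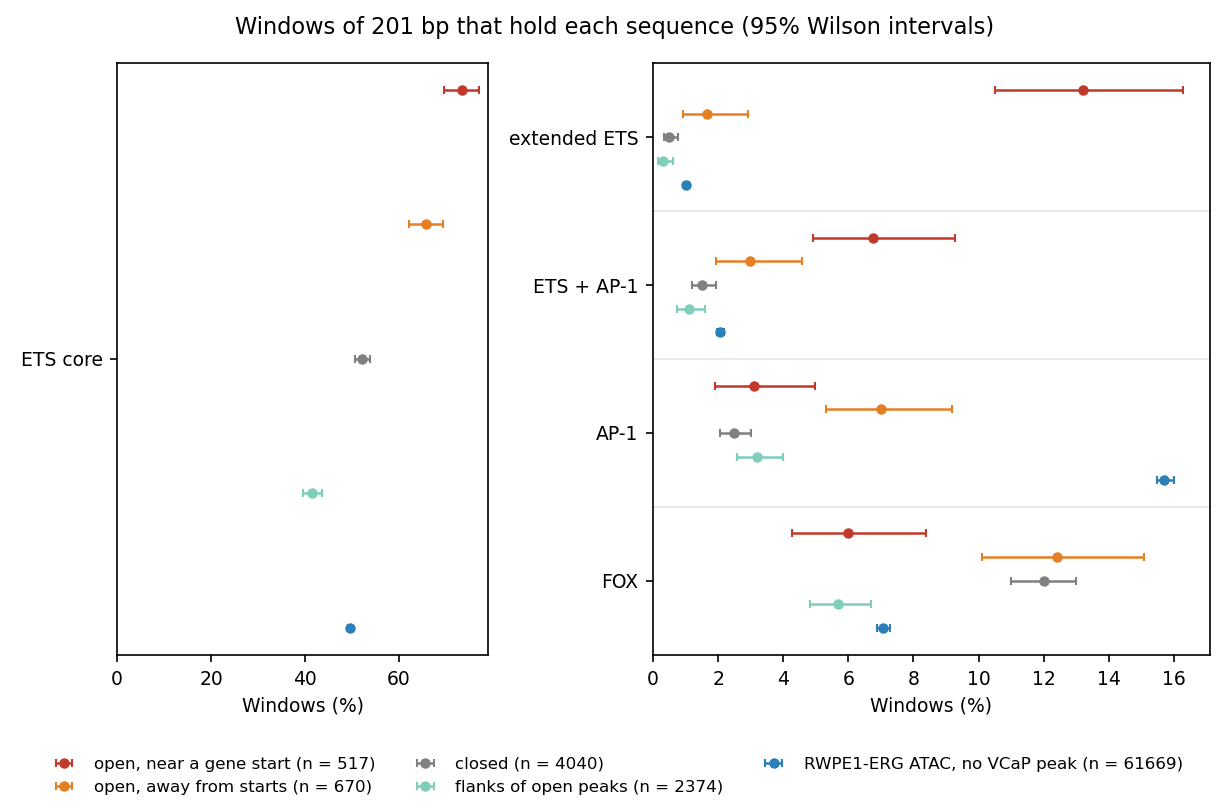
Share of windows (%, with 95% Wilson intervals), 100 bases to each side of the summit, that hold each sequence. The ETS core is on the left, and CCGGAAGT (extended ETS), GGAAGTGA (ETS + AP-1), AP-1 and FOX are on the right. GGAAGTGA holds no full AP-1 sequence. The ETS core stands at 73.5% in open peaks near a start and 65.8% away from one, above the closed peaks (52.2%), the flanks (41.5%) and other ATAC peaks (49.5%), while AP-1 is highest in the other ATAC peaks (15.7%).

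Sites open in all 3 lists differed from those in a single list. Among low-background open peaks, 722 were in 3 lists and 279 in 1. Of the former 58.2% lay near a gene start and of the latter 17.2% (difference 41.0 points, 34.9 to 46.3). RWPE1 ERG peaks met 11.5 and 3.58% (7.91 points, 4.33 to 10.9), and ERK2 peaks of RWPE1-ERG cells 12.2 and 1.43% (10.8 points, 7.66 to 13.5). H3K27me3 of RWPE1-Vector cells met 4.99 and 12.2% (-7.2 points, -11.8 to -3.39). The long ETS form was in 10.5 and 0.358%, and FOX sequences in 7.76 and 14.7% (-6.94 points, -11.9 to -2.67). A peak in 1 list is also a weaker ATAC peak, with a median fold enrichment of 5.21 in RWPE1-ERG cells against 7.78 for peaks in all 3 lists, and this part was not tested.

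The open sites with the strongest VCaP signal lay at scattered genes. The highest fold enrichment, 8.64 from a pileup of 23 reads, was 433 bases upstream of a start of RGL2, which encodes an effector of Ras and Ral signalling. It was open in all 3 lines and had ERK2 peaks in RWPE1-ERG (fold enrichment 4.47) and RWPE1-Vector cells (4.31), but no RWPE1 ERG peak. The nearest locus in the RNA-Seq table was that of BAK1, 273171 bases away. The next lay 123 bases upstream of SCYL3 (8.07) and 8 bases downstream of the start of PEX2 (8.04), a peroxisome biogenesis gene, both open in all 3 lines. BRI3BP and FERMT2, the latter encoding the integrin activator kindlin-2, had sites of 7.62 within 1 kb of a start, open in the RWPE1-ERG list alone. Of the 10 strongest, CXCL8 was the only site that also had an RWPE1 ERG peak.

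Genes next to open sites were more often expressed in RWPE1 lines. The gene whose locus was nearest was taken from the RNA-Seq table, which gave 1145 genes for the 1661 open peaks, and 398 of the peaks had several genes at the same distance. An FPKM of at least 1 in any of the 4 lines was seen for 798 (69.7%, 67.0 to 72.3), against 51.7% of the 2505 genes nearest closed peaks alone (difference 18.0 points, 14.6 to 21.2) and 48.5% of all 25839 genes. For the 493 genes with an open peak at a start the share was 90.1%, though the start can be that of another gene. Among low-background peaks near a start, the nearest gene was expressed at 89.7% of open and 74.9% of closed peaks (14.8 points, 9.15 to 20.9). Away from starts the nearest gene was expressed at 56.4% of open and 51.2% of closed peaks (5.21 points, 1.11 to 9.25). The median FPKM of the 1145 genes was 4.68 in RWPE1-Vector, 4.67 in RWPE1-ERG, 4.61 in RWPE1-mAKT and 4.73 in RWPE1-ERG+mAKT cells.

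Few genes next to open sites passed a 2-fold limit between lines, and their shares did not differ detectably from those of genes next to closed sites. Each FPKM is the authors' pooled value over 3 libraries, so no spread between replicates can be given and a gene is counted as higher or lower when log2(FPKM + 1) differs by more than 1, which understates changes of low genes. In RWPE1-ERG over RWPE1-Vector cells, 16 of 786 genes (2.04%) were higher beside 3.62% of all genes, and 4 (0.509%) were lower beside 0.988%. In RWPE1-ERG+mAKT over RWPE1-ERG cells, 8 (1.01%) were higher beside 2.06% and 12 (1.52%) lower beside 2.51%. In RWPE1-ERG+mAKT over RWPE1-mAKT cells, 7 (0.895%) were higher beside 2.08% and 2 (0.256%) lower beside 0.876%. In RWPE1-mAKT over RWPE1-Vector cells, 3 (0.388%) were higher beside 1.16% and 4 (0.517%) lower beside 0.841%. The comparisons share lines and are not independent. The 95% intervals of the 4 shares of lower genes included the share of all genes. Those of the 4 shares of higher genes lay below it, such as 1.26 to 3.28% beside 3.62% in RWPE1-ERG over RWPE1-Vector cells. Against genes nearest closed peaks alone, of which 2.36% were higher in RWPE1-ERG over RWPE1-Vector cells, that share differed by -0.325 points (-1.58 to 1.1), and the intervals of all 8 such differences included 0.

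Of 65 genes nearest an open peak with an ERK2 peak of RWPE1-ERG cells, 6 were higher in RWPE1-ERG over RWPE1-Vector cells (9.23%, 4.3 to 18.7), beside 3.62% of all genes. Without 4 genes of uncertain value, described below, 2 of 61 remained (3.28%, 0.904 to 11.2). These 4 were all among the 6 and were left out after their values were seen, so the share had to fall. Genes of such kinds were not taken out of the share of all genes, so the 3.28% is not comparable with it. Next to open peaks with an RWPE1 ERG peak 3 of 74 genes were higher (4.05%, 1.39 to 11.3), and next to those near a start 8 of 440 (1.82%, 0.924 to 3.55). The 6, picked out after their values were seen, were PLCB4, ARHGAP29, HIST4H4, HIST1H4L, HIST1H2BK and RNU11. PLCB4, a phospholipase C, stood at 4.15 FPKM in RWPE1-Vector, 22.8 in RWPE1-ERG, 2.30 in RWPE1-mAKT and 1.93 in RWPE1-ERG+mAKT cells. It was thus high in RWPE1-ERG cells alone, and its log2 difference was 2.21 over RWPE1-Vector and -3.02 for RWPE1-ERG+mAKT over RWPE1-ERG. It had 3 open sites, and the site with ERK2 lay 51960 bases upstream of its start. ARHGAP29, a GTPase-activating protein, stood at 27.6, 60.9, 19.3 and 26.4 FPKM in the same order. The histone genes are near-identical copies whose reads can be split between loci, and they and the small nuclear RNA RNU11 mostly lack the poly(A) tail that the library preparation selected, so their values are uncertain. HIST1H4L, at 20.6, 64.2, 15.8 and 26.5 FPKM, had an open peak 26 bases from a start with ERG and ERK2 peaks of RWPE1 lines. The open site assigned to RNU11 lay 44 bases upstream of TAF12.

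Other named genes next to open sites followed a range of patterns. ENTPD2, an ectonucleotidase, stood at 5.74 FPKM in RWPE1-Vector, 22.9 in RWPE1-ERG, 10.1 in RWPE1-mAKT and 17.3 in RWPE1-ERG+mAKT cells. KRT80, an epithelial keratin, stood at 10.8, 32.8, 8.48 and 12.6, so RWPE1-ERG was the line that stood apart. AQP3, a water and glycerol channel of epithelia, stood at 11.8, 4.97, 28.5 and 62.3, lowest with ERG alone and highest with ERG and mAKT, a log2 difference of 3.41 between those. Its open site lay 9890 bases from the gene. LCN2, which encodes the secreted siderophore-binding lipocalin-2, stood at 0.945, 2.27, 2.09 and 12.0, and its open site, 3180 bases upstream of the start, carried H3K27me3 in RWPE1-Vector cells. TNC, which encodes the matrix protein tenascin-C, stood at 24.9, 15.3, 11.4 and 10.5. OAS1, an interferon-induced gene, stood at 1.74, 3.88, 2.05 and 6.79 FPKM.

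Of 153 genes in 9 lists, 151 were in the RNA-Seq table. Of these, 13 were the nearest gene of an open site (8.61%, 5.1 to 14.2), beside 4.43% of all genes in that table. The lists were chosen with earlier results known and were not matched to all genes by expression, so these shares are a description. No gene of the luminal, basal or endothelial list was among them, and with 13 to 15 genes in the table each, lists of this size allow no reading of that. From the ERK feedback list, DUSP6, the phosphatase of ERK, had 3 open sites, and the one 10 bases from its start had ERG in RWPE1-ERG+mAKT (fold enrichment 4.24) and ERK2 in RWPE1-Vector cells (3.08). DUSP6 stood at 86.2 FPKM in RWPE1-Vector, 59.6 in RWPE1-ERG, 74.8 in RWPE1-mAKT and 32.5 in RWPE1-ERG+mAKT cells, and was the one listed gene next to an open site that was past 2-fold in RWPE1-ERG+mAKT over RWPE1-mAKT cells (log2 difference -1.18). SPRY1, an inhibitor of receptor tyrosine kinase signalling, had an open site 93 bases upstream of its start with the same ERG and ERK2 peaks (3.52 and 3.22), and stood at 2.36, 2.94, 2.76 and 3.76 FPKM. In the whole ERK feedback list, 0 of 14 measured genes were past 2-fold in RWPE1-ERG over RWPE1-Vector cells. Over all genes 3.62% were higher and 0.988% lower there. In RWPE1-ERG+mAKT over RWPE1-mAKT cells 2 of the 14 were lower and 0 higher, beside 0.876 and 2.08% of all genes.

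Epithelial junction genes gave 3 members next to open sites. CLDN4, a tight junction claudin, had a site 252 bases from its start with ERG in RWPE1-ERG+mAKT cells (4.11), and stood at 8.23 FPKM in RWPE1-Vector, 14.9 in RWPE1-ERG, 14.0 in RWPE1-mAKT and 17.6 in RWPE1-ERG+mAKT cells. GRHL2, an epithelial transcription factor, stood at 6.88, 6.69, 10.3 and 11.8, and PKP2, a desmosomal plaque protein, at 18.7, 13.4, 20.9 and 15.1. In the junction list as a whole, 4 of 20 measured genes were higher and 0 lower in RWPE1-ERG+mAKT over RWPE1-ERG cells. Over all genes 2.06% were higher and 2.51% lower. None of the 4 was next to an open site, but only 3 of the 21 listed genes were, so this allows no reading. From the ETS family, EHF, ELF2 and ELK4 had open sites, and all 3 stayed within 2-fold in every comparison, ELK4 for instance at 9.2, 9.28, 9.05 and 7.41. EHF had 2 open sites, and the weaker one, 12388 bases downstream of a start, had ERG in RWPE1-ERG+mAKT cells (3.52).

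From the PI3K/AKT list, PIK3R1, a regulatory subunit of PI3-kinase, had an open site 265 bases from its start. It stood at 10.0 FPKM in RWPE1-Vector, 4.67 in RWPE1-ERG, 9.31 in RWPE1-mAKT and 11.4 in RWPE1-ERG+mAKT cells, lower with ERG alone than in the other 3 lines, and the log2 difference of RWPE1-ERG+mAKT over RWPE1-ERG was 1.13. Of the 20 genes in that list, 2 were higher and 1 lower in this comparison, beside 2.06 and 2.51% of all genes. From the migration list, PLAT, tissue plasminogen activator, stood at 6.89, 11.2, 6.36 and 7.84, ADAMTS1, a secreted protease, at 4.26, 4.23, 2.46 and 1.97, and LGR6 at or below 0.328 in every line. Of the 15 measured migration genes 4 were higher in RWPE1-ERG over RWPE1-Vector cells, beside 3.62% of all genes. None of these 4 was next to an open site, but only 3 of the 22 listed genes were, so this allows no reading. FOSB, the AP-1 member, was the nearest listed gene of a site that lay 344 bases from a start of ERCC1, so that assignment is uncertain.

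**Figure D5:**
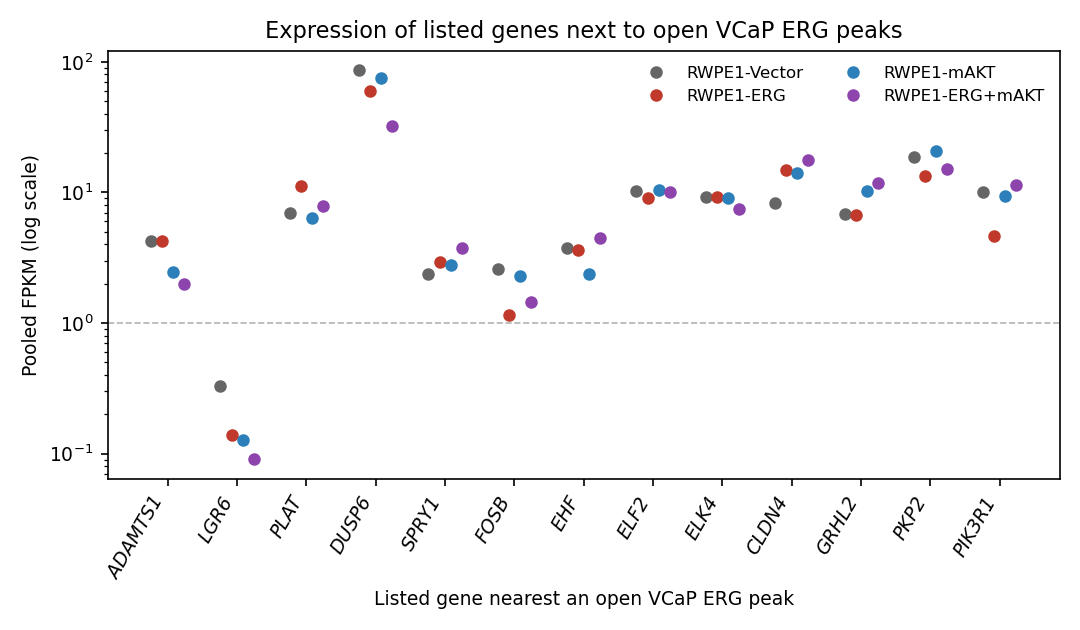
Pooled FPKM (log scale) of the 13 listed genes nearest an open VCaP ERG peak, 1 point for each of the 4 RWPE1 lines, with a dashed line at 1 FPKM and no error bars because the authors' values are pooled. DUSP6 ranges from 32.5 to 86.2, PIK3R1 is lowest in RWPE1-ERG cells at 4.67, and LGR6 stays below 1 in all lines.

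The genes with the most open sites were next to high-background peaks. CWH43 was the nearest gene of 54 open peaks, of which 1 had low background, LOC441666 of 43 (0 with low background), SPIN4 of 33 (2), ANKRD26P1 of 24 (0) and LINC00293 of 21 (1). The closest of them lay 30707 bases from CWH43 and 703964 bases from SPIN4. By contrast 102 genes had 2 or more low-background open peaks.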

How the data were processed

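According to the methods, reads were aligned by the authors with Bowtie2 to hg19, duplicates were removed with Picard and peaks were called with MACS2, against input for VCaP ERG and with the broad setting for ATAC-Seq. The methods state that blacklisted regions were removed with bedtools. The VCaP list still held pileups above the limit for deduplicated reads and peaks beside centromeric gaps, so whether it follows both steps is not known. The deposited peak lists hold, per the file headers, the pileup (signal), the fold enrichment (a ratio) and -log10 p-values and q-values of 1 library per group. The VCaP list and some ATAC lists have no header, and their MACS2 version and read totals are not given in the sources used here. The deposited RNA-Seq table holds FPKM that the authors pooled over 3 libraries per line with Cuffdiff. Its columns of log2 fold changes, p-values and q-values are the authors' own comparisons and were not used. Other lists were not used because their contents did not match the label of the sample to which they were attached.

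Of 6143 VCaP rows, 5871 lay on chr1 to chr22 and chrX, and 1 with inconsistent coordinates was left out. The overlap minimum was 1 base. Local background was (pileup + 1) / fold enrichment - 1. Sequences came from the GRCh37 reference and gene starts from GENCODE, in windows of 100 bases to each side of the summit. Nearest genes came from the locus column of the RNA-Seq table, ties going to the gene with the nearest GENCODE start. Expression comparisons used log2(FPKM + 1) among genes with FPKM of at least 1 in either line. Python 3.11.15, pandas 2.3.3, scipy 1.17.1 and pysam 0.24.0 were used, and the overlap and sequence code was tested on simulated data.

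Members and gene lists were chosen with earlier results of these data known. Named peaks were the 10 open peaks of highest fold enrichment, up to 10 with ERG and ERK2 peaks of RWPE1 lines, the 3 on either side of the rule's edge and those next to listed genes. Named genes were the 5 with the largest difference in each direction and comparison among those with FPKM of at least 5 and an open peak within 20 kb, the 5 with most open peaks, and listed genes next to an open peak. The peaks of highest pileup were added. Some measured genes and sequences are not reported here.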

Additional observations from a re-analysis of the deposited data

How the results depend on the processing

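No paired analysis was possible because each peak list stands for 1 library and the RNA-Seq values are pooled. No replicate was left out for the same reason. Of 83 alternative values, 46 stayed within their interval or within 1.5 times the count. Limits on the background and the choice of the shorter gene at ties were chosen after seeing the data, and the causes of the moves below were not tested.

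The open share of VCaP peaks, 28.3%, became 48.1% with q of at most 0.01, 21.3% with the 33000 strongest ATAC peaks of each list, 24.9% by the summit base and 22.7% with background of at most 5. With q of at most 0.01, the open peaks with RWPE1 ERG were 7.59%, with ERK2 of RWPE1-Vector 4.88% and with H3K27me3 of S96E cells 3.79%. With the 33000 strongest ATAC peaks, ERK2 of RWPE1-ERG was 8.01%, ERK2 of RWPE1-Vector 7.61%, and H3K27me3 of RWPE1-Vector, RWPE1-ERG and S96E cells 4.49, 2.08 and 3.29%. By the summit base, RWPE1 ERG was 3.28%, ERK2 4.51 and 3.76% in RWPE1-ERG and RWPE1-Vector, and H3K27me3 4.03, 2.19 and 4.03%. With background of at most 5, RWPE1 ERG and ERK2 of RWPE1-ERG were each 8.34%, ERK2 of RWPE1-Vector 8.09%, ETS core 69.2%, AP-1 5.31% and gene starts 43.6%. Windows of 50 bases gave 43.1% for the ETS core and 2.17% for AP-1. Starts within 5 kb gave 37.6%. Expressed nearest genes were 51.7% at an FPKM of 5 and 66.2% with ties to the shorter gene.

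With a pseudocount of 0.1, genes higher and lower numbered 27 and 13 in RWPE1-ERG over RWPE1-Vector, 17 and 21 in RWPE1-ERG+mAKT over RWPE1-ERG, and 11 and 4 in RWPE1-ERG+mAKT over RWPE1-mAKT, and 5 were higher in RWPE1-mAKT over RWPE1-Vector. The same pseudocount called 4.94 and 1.81%, 2.94 and 3.61%, and 2.95 and 1.29% of all genes in the first 3 comparisons, beside 3.44 and 1.65%, 2.15 and 2.66%, and 1.41 and 0.512% of the genes next to open sites. In RWPE1-mAKT over RWPE1-Vector it called 1.5% of all genes higher, beside 0.646% of the genes next to open sites. Ties to the shorter gene gave 11 higher in RWPE1-ERG+mAKT over RWPE1-mAKT. Of 40 gene counts, 32 stayed within 1.5 times. The shallow VCaP peaks, with a median of 9 reads, and single libraries limit every share here.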
